A study of Mus musculus with 15 samples.

Results

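Immediate early genes are genes whose transcription rises within minutes of a stimulus without the synthesis of other proteins. The 10 described here include Fos, Fosb, Jun, Junb, Jund and Atf3, which encode bZIP proteins of the AP-1 family. The others are Egr1, Nr4a1 and Nr4a3, which encode other transcription factors, and Ier2, which encodes a small nuclear protein. Jund is listed with them as a Jun gene, though its protein is the Jun protein produced most evenly in resting cells. The 10 genes are among the 21755 protein-coding genes examined for an H3K4me3 island, an enriched region called by SICER2. The genes were chosen by name with the presence, width and score rank of their islands in these libraries already known, so those values are given here as a description with no test. H3K4me3 was measured by PAT-ChIP-seq, chromatin immunoprecipitation from formalin-fixed and paraffin-embedded tissue, in the livers of 15 female C57BL/6 mice (C57BL/6J in the study's methods), with 1 library per mouse. Each of 5 diets was given to 3 mice: a standard diet ad libitum (SD), caloric restriction on the standard formula (CR), a high-fat diet ad libitum (HF), and a diet in which yellow corn (YD) or purple corn (RD) replaced the maize of the standard formula. YD and RD came from near-isogenic corn hybrids, of which only the purple one contained anthocyanins, and they matched SD in energy content. All mice were wild type, began the diets at 3 months of age and were fed for 10 months, and the age in their labels is 12 months. The mice came from several litters, which the labels do not tie to single mice.

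In resting cells many immediate early promoters are already open and carry H3K4me3, in which lysine 4 of histone H3 holds 3 methyl groups and which marks promoters of active and poised genes. Growth factors, stress and hormones reach them through kinase cascades that act on SRF, its partners and CREB already present in the nucleus. Fos and Jun proteins then pair to form AP-1, which in liver is known for its part in regeneration and in the response to injury, while the Nr4a receptors are induced by glucagon through cAMP.

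The promoters shown next belong to Jun and Junb, which had an island in all 15 libraries, and to Fos, Fosb and Nr4a3, whose islands were missing in some of the libraries, most of them from the corn diets. Each run is the 250 bases before a RefSeq transcription start site (TSS), 5′ to 3′ on the strand of the gene, in build GRCm38.p6: chr4:95052223-95052472 (minus strand) for Jun, chr8:84978749-84978998 (minus) for Junb, chr12:85473640-85473889 (plus) for Fos, chr7:19310046-19310295 (minus) for Fosb and chr4:48045055-48045304 (plus) for Nr4a3. Capitals mark the TATA box TATAAA and the letters TGACG, or CGTCA on the other strand, which form the core of the cAMP response element.
Jun promoter: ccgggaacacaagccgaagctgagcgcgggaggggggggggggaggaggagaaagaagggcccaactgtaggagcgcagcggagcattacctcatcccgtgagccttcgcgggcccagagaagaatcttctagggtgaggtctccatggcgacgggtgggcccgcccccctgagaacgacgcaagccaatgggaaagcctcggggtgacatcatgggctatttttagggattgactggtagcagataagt
Junb promoter: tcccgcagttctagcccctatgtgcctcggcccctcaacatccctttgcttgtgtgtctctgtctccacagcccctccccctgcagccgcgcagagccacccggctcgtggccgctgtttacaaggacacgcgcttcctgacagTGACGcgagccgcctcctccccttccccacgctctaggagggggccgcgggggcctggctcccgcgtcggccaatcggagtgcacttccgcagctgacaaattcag
Fos promoter: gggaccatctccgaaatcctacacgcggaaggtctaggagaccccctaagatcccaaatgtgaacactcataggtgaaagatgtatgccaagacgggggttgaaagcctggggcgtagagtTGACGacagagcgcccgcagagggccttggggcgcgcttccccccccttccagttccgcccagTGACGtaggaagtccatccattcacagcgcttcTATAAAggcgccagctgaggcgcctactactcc
Fosb promoter: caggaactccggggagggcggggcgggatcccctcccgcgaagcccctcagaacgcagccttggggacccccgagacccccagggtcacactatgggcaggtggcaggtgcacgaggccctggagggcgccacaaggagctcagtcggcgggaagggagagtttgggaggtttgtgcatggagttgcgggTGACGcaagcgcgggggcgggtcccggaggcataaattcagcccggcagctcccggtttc
Nr4a3 promoter: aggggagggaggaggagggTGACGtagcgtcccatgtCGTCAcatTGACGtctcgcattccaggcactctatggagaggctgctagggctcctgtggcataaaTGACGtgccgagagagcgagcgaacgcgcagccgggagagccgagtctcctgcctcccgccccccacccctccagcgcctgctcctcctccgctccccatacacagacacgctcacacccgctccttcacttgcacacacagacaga

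RefSeq promoters were matched for 8 of the 10 genes. Their median GC content was 64.4% and their median observed-to-expected CpG ratio was 0.715, against 52.4% and 0.374 over 32851 promoters of the same length from 27025 genes. Jund was the one member below the median of all promoters, with a GC content of 47.6% and a CpG ratio of 0.213, but its RefSeq window lies upstream of the GENCODE TSS at which its islands were counted, and an island overlapped that window in only 2 libraries. The TATA box TATAAA was found on either strand of 12.4% of all promoters and, among the members, in Fos alone, at −33 to −28 from the TSS. The core TGACG, searched on both strands after the sequences had been seen, was in 17.8% of all promoters and in 6 of 8 members, all but Jun and the upstream window of Jund. Fos held it at −129 to −125 and at −66 to −62, and Nr4a3 and Nr4a1 held 4 copies each. The core contains a CpG, and the member windows were richer in CpG than all promoters. The 2 shares thus do not compare promoters of like composition. The full cAMP response element TGACGTCA (1.55% of promoters), the AP-1 site TGACTCA or TGAGTCA (4.46%) and the CArG box (1.47%) were searched on both strands and matched none of the 8 windows. Sites outside the 250 bases, variants of these letters, and Egr1 and Ier2, which had no matched window, were not searched. The islands overlapped the printed promoter in 13 libraries for Jun, 10 for Junb, 11 for Fos, 7 for Fosb and 9 for Nr4a3.

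The 15 lists held 7825 to 33752 islands, and the reads behind a list, recovered from the steps of the scores with an assumed effective genome fraction of 0.74, numbered 5589269 to about 15449854. The YD lists were among the shortest, with 7825 to 10906 islands, although YD replicate 1 was the most deeply read library. Protein-coding genes with an island made up 51.2 ± 3.53% of genes in HF, 43.4 ± 6.92% in CR, 39.6 ± 5.98% in SD, 31.2 ± 3.46% in RD and 22.8 ± 4.69% in YD (mean ± SD, n = 3 mice). The liver label was checked against 8 hepatocyte markers, of which 5 to 8 had an island in each library. Leukocyte markers had 0 or 1 island of 6 in 14 libraries and 5 of 6 in HF replicate 1, with Csf1r at 0 in all 15. Endothelial markers had 2 to 5 islands of 5 in HF, 0 to 3 in SD and CR, 0 in YD and 0 to 2 in RD. Since whole liver was sampled, fewer cells of a type and less H3K4me3 per cell cannot be told apart. The library names took the form ChIP in 10 libraries and PATChIP in 5, and all SD and YD libraries had the first form.

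A gene had an island when one reached within 1 kb of any of its TSSs in the GENCODE annotation, and the highest-scoring one was taken. A second island at the same TSS was present at 6 pairs of gene and library (Jun in RD replicate 3, Junb in CR replicate 1, Atf3 in HF replicate 1, Egr1 in SD replicate 2 and CR replicate 2, and Ier2 in SD replicate 2). Widths are multiples of the 200 bp window of SICER2. The rank of an island is the percentage of islands in the same list with a lower score, so it is not affected by the scale of the scores in another library. An island was found at 113 of the 150 pairs of member and library. The members nearest to the limit on the inside were Jund in CR replicate 3 and YD replicate 3, with a gap of 852 bp, and the nearest on the outside was Nr4a3 in SD replicate 3, with a gap of 1353 bp.

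**Figure D1:**
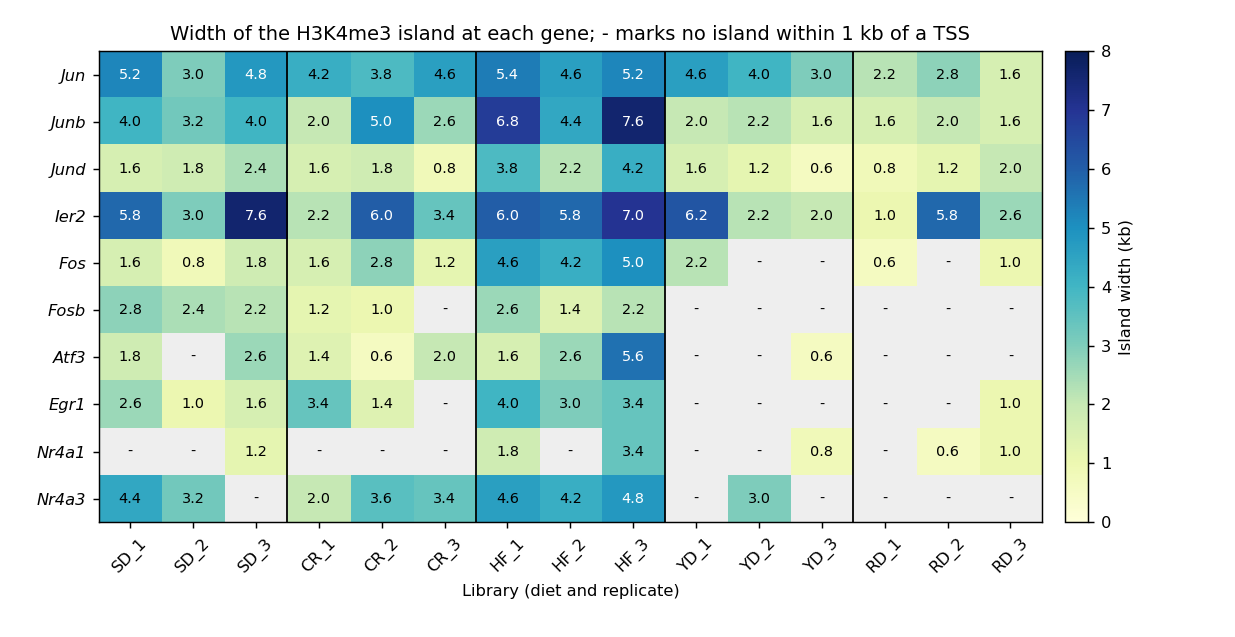
Width in kb of the H3K4me3 island at each of the 10 immediate early genes (rows) in each of the 15 libraries (columns, 3 mice per diet). Grey cells with a dash had no island within 1 kb of a TSS. Jun, Junb, Jund and Ier2 are filled in every column, while the YD and RD columns of Fosb hold no island and Fos is widest in the 3 HF columns.

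The immediate early genes with an island numbered 9, 8 and 9 of 10 in the SD mice, 9, 9 and 7 in CR, 10, 9 and 10 in HF, 5, 5 and 6 in YD, and 5, 5 and 7 in RD. The mean was 9.67 ± 0.577 genes in HF, 8.67 ± 0.577 genes in SD and 8.33 ± 1.15 genes in CR, against 5.67 ± 1.15 genes in RD and 5.33 ± 0.577 genes in YD (± SD, n = 3). The corn diets lay lowest, and 1 RD mouse reached the lowest CR value of 7. All protein-coding genes followed the same order of diets in the share with an island, except that CR stood above SD. Among libraries named ChIP the members with an island were 8 to 9 in SD, 7 in the single CR library, 10 in the single HF library, 5 to 6 in YD and 5 to 7 in RD, and among those named PATChIP they were 9 in CR, 9 to 10 in HF and 5 in the single RD library.

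**Figure D2:**
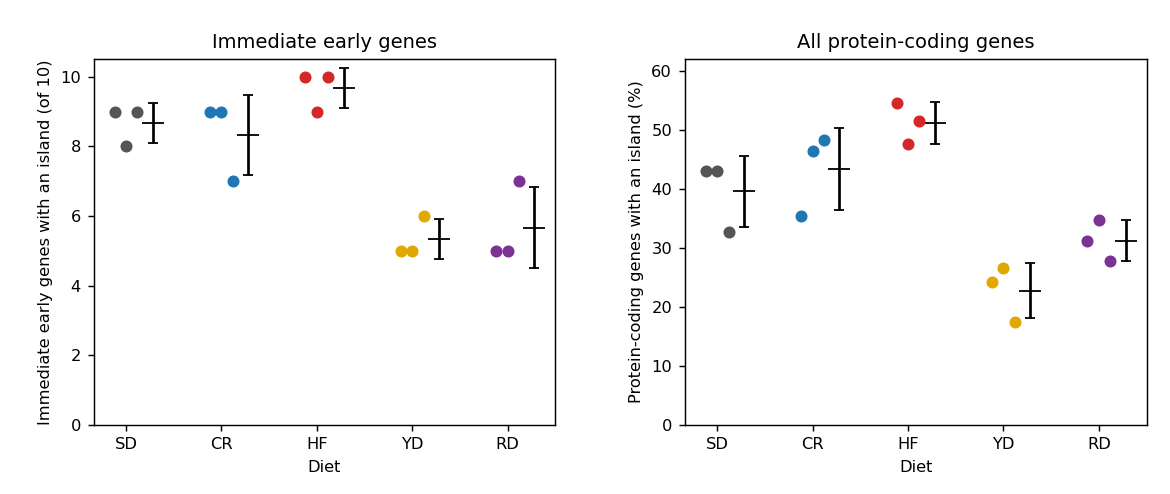
Number of the 10 immediate early genes with an island (left) and percentage of 21755 protein-coding genes with an island (right) by diet. Each point is 1 mouse, and the bar beside it is the mean with its SD over 3 mice. The YD and RD points are low in both panels and the HF points are high.

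The median width of the member islands averaged 2633 ± 208 bp in SD, 2467 ± 416 bp in CR, 4467 ± 379 bp in HF, 1867 ± 577 bp in YD and 1533 ± 503 bp in RD. Over all protein-coding genes with an island the corresponding means were 1870 ± 231, 2000, 2270 ± 416, 1670 ± 643 and 1600 ± 346 bp. Member islands in HF were thus wider than those of other genes in the same libraries, with a ratio of the medians of 1.65 to 2.33 in the 3 HF mice, against 1.2 to 1.69 in SD, 1 to 1.4 in CR, 0.917 to 1.57 in YD and 0.714 to 1.14 in RD. By score rank, member islands had a mean median of 91.4% in HF, 84.7% in YD, 82.0% in RD, 81.7% in CR and 79.7% in SD, above the 64.1% to 74.2% of all protein-coding genes. These medians of width and rank cover only the members with an island, which in the corn diets were mostly the 4 genes marked in every library, so they do not compare the same genes between diets. Within 1 gene the mean rank in SD, YD and RD was 96.5%, 94.8% and 81.6% for Jun, and 98.3%, 92.4% and 87.5% for Junb. In the same order it was 75.0%, 56.4% and 72.9% for Jund, and 98.4%, 95.7% and 94.4% for Ier2. A rank also depends on which other islands a list holds. Over all protein-coding genes with an island the mean of the median ranks was 70.9% in SD, 64.1% in YD and 71.9% in RD.

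The Jun genes encode the AP-1 subunits that can pair with each other as well as with Fos proteins. Jun, Junb and Jund were marked in all 15 libraries, as was Ier2, so 4 of 10 members had an island in every library, against 9.46% of all protein-coding genes (2059 genes). No other protein-coding gene had a TSS within 1 kb of a member island in any library.

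Jun, on chr4:95049034-95052222 (minus strand, mm10), encodes c-Jun, which is known to be needed for the proliferation of hepatocytes. Its island was 5200, 3000 and 4800 bp wide in the SD mice, 4200, 3800 and 4600 bp in CR, 5400, 4600 and 5200 bp in HF, 4600, 4000 and 3000 bp in YD, and 2200, 2800 and 1600 bp in RD. All RD values of this highest-scoring island lay below every value of the other 4 diets. The rank was 93.0% to 99.0% in the 12 libraries of the other diets and 80.6%, 89.3% and 75.0% in RD. In RD replicates 1 and 3 the island began 222 bp after the TSS, while in each of the other 13 libraries it reached at least 778 bp upstream. RD replicate 3 had a second island of 1200 bp within 1 kb of the TSS, from −1778 to −579 bp relative to it, and both together spanned 3600 bp, more than the 3000 bp of SD replicate 2 and YD replicate 3. The full separation of RD from the other diets at Jun thus rests on counting 1 island per gene. RD replicates 1 and 2 had a single island each and lay below every value of the other 4 diets either way.

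Junb, on chr8:84974484-84978718 (minus strand), encodes the subunit that often acts against c-Jun. The Junb island was 4000, 3200 and 4000 bp wide in SD, 2000, 5000 and 2600 bp in CR, 6800, 4400 and 7600 bp in HF, 2000, 2200 and 1600 bp in YD, and 1600, 2000 and 1600 bp in RD. HF lay above SD in all mice and both corn diets below it, while CR spread across all of SD and reached the level of YD. In CR replicate 1 a second island lay upstream, and both together spanned 5000 bp. In HF replicates 1 and 3 the island covered the whole gene and reached 4517 and 5517 bp downstream of the TSS, against 1517 to 2117 bp in the 6 corn libraries. The rank stayed between 79.5% and 99.6%, with the 3 lowest values, 88.9%, 79.5% and 89.1%, in RD replicates 1 and 3 and YD replicate 3.

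Jund, on chr8:70698949-70700616 (plus strand), encodes the Jun protein that is produced most evenly in resting cells. The Jund island was narrower, at 1600, 1800 and 2400 bp in SD, 1600, 1800 and 800 bp in CR, 3800, 2200 and 4200 bp in HF, 1600, 1200 and 600 bp in YD, and 800, 1200 and 2000 bp in RD. HF and SD overlapped, since HF replicate 2 was narrower than SD replicate 3. The reference TSS lay inside the island in 5 of 15 libraries and upstream of it in the other 10. The rank was 92.3%, 95.0% and 97.5% in HF, above all 12 other values, which ran from 32.1% to 88.1%.

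Ier2, on chr8:84661331-84662852 (minus strand), encodes a short-lived nuclear regulator. The Ier2 island was 5800, 3000 and 7600 bp wide in SD, 2200, 6000 and 3400 bp in CR, 6000, 5800 and 7000 bp in HF, 6200, 2200 and 2000 bp in YD, and 1000, 5800 and 2600 bp in RD. Each diet except HF held both a narrow and a wide island, and the diets overlapped. The rank was at least 90% in every library, and the island covered the whole gene in 11 of 15.

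**Figure D3:**
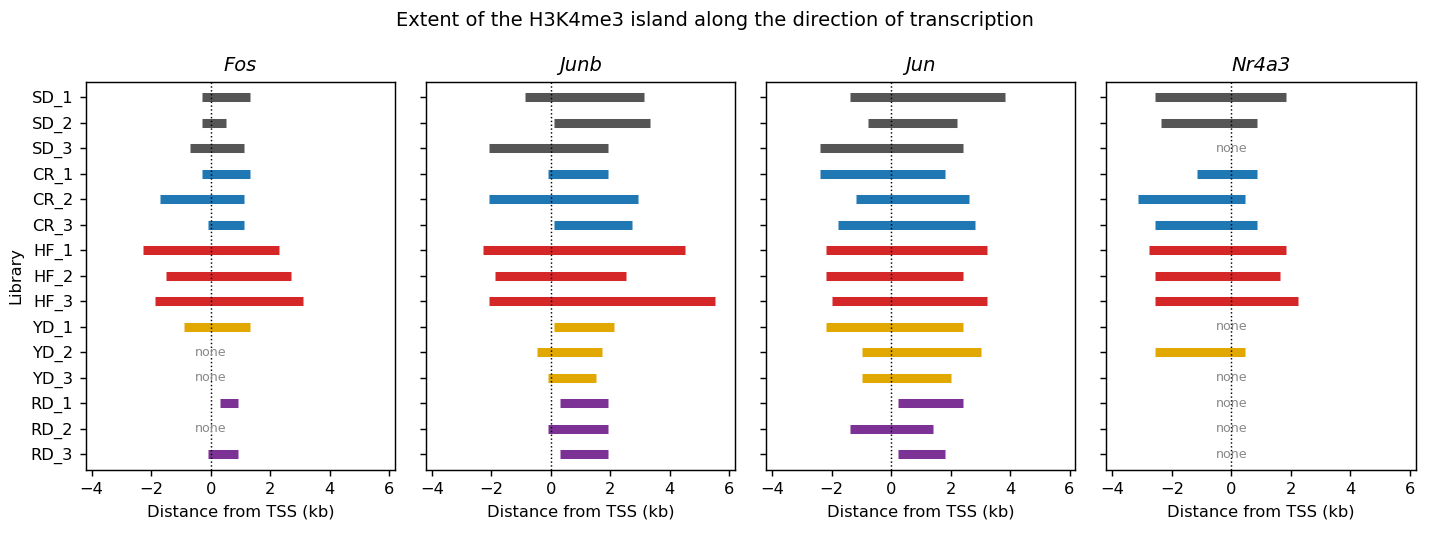
Extent of the island at Fos, Junb, Jun and Nr4a3 in each library, in kb from the reference TSS (dotted line) along the direction of transcription, with upstream to the left. Colours mark diets, and "none" marks a library without an island. At Fos the HF bars extend farthest downstream, and the RD bars of Jun in replicates 1 and 3 begin after the TSS. Only the highest-scoring island is drawn, so the second, upstream island of Jun in RD replicate 3 is not shown.

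Fos, on chr12:85473890-85477273 (plus strand), encodes c-Fos, the classical partner of c-Jun and a widely used sign of recent stimulation. Its island was 1600, 800 and 1800 bp wide in SD, 1600, 2800 and 1200 bp in CR, and 4600, 4200 and 5000 bp in HF. In YD it was 2200 bp in replicate 1 and missing in replicates 2 and 3, and in RD it was 600 and 1000 bp in replicates 1 and 3 and missing in replicate 2. The 3 HF islands were wider than any of the 9 islands found in the other diets, a pattern counted after the values were seen, which Fos alone of the 9 members with enough islands had and which 3.35% of 9405 protein-coding genes had. The HF islands reached 1489 to 2289 bp upstream and 2310 to 3110 bp downstream of the TSS, and covered 68.3% to 91.9% of the gene, against 15.1% to 38.7% in the other libraries with an island. Their ranks were 88.5%, 85.8% and 90.9%, while the others ran from 18.1% in SD replicate 2 to 82.7% in SD replicate 1.

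Fosb, on chr7:19302696-19310051 (minus strand), encodes the Fos relative best known for a stable splice form that builds up with repeated stimulation. The Fosb island was 2800, 2400 and 2200 bp wide in SD, 1200 and 1000 bp in CR replicates 1 and 2, and 2600, 1400 and 2200 bp in HF. It was missing in CR replicate 3 and in all 6 YD and RD libraries. An island in at least 8 of the 9 SD, CR and HF mice and in none of the 6 corn-fed mice was counted after the values were seen, and Fosb was the one member with it, against 1.84% of 13044 protein-coding genes. The Fosb islands were of middling score, with ranks of 11% to 77%, and both CR values (11% and 34.8%) were below all 3 of SD.

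Atf3, on chr1:191170296-191218039 (minus strand), encodes a stress-induced factor that mostly represses. The Atf3 island was 1800 and 2600 bp wide in SD replicates 1 and 3, 1400, 600 and 2000 bp in CR, and 1600, 2600 and 5600 bp in HF. Among the corn diets only YD replicate 3 had one, of 600 bp. The rank was 1.68% in SD replicate 3 and 2.22% in CR replicate 2, so these calls were among the weakest of their lists, and 45.3% to 77.7% in the other 7 libraries.

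Egr1 encodes a zinc finger factor induced by growth factors and by injury. The Egr1 island was 2600, 1000 and 1600 bp wide in SD, 3400 and 1400 bp in CR replicates 1 and 2, and 4000, 3000 and 3400 bp in HF. CR replicate 3 and all 3 YD mice lacked one, and of the RD mice only replicate 3 had one, of 1000 bp and with a rank of 5.87%. The HF widths lay above all 3 SD widths, and CR replicate 1 equalled one of them.

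Nr4a1, on chr15:101254269-101274795 (plus strand), encodes Nur77, an orphan nuclear receptor that raises gluconeogenic genes in liver. It was the least often marked member, with an island in 6 libraries: 1200 bp in SD replicate 3, 1800 and 3400 bp in HF replicates 1 and 3, 800 bp in YD replicate 3, and 600 and 1000 bp in RD replicates 2 and 3. No CR mouse had one. It was found in 3 of the 6 corn libraries and in 3 of the 9 others, with ranks of 4.52% to 89.2%.

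Nr4a3, on chr4:48045153-48086447 (plus strand), encodes the related receptor NOR1. The Nr4a3 island was 4400 and 3200 bp wide in SD replicates 1 and 2, 2000, 3600 and 3400 bp in CR, 4600, 4200 and 4800 bp in HF, and 3000 bp in YD replicate 2. It was missing in SD replicate 3, YD replicates 1 and 3 and all RD mice. Where found it lay mostly upstream, with a median reach of 2552 bp before and 847 bp after the TSS, unlike Fos with 489 and 1210 bp.

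**Figure D4:**
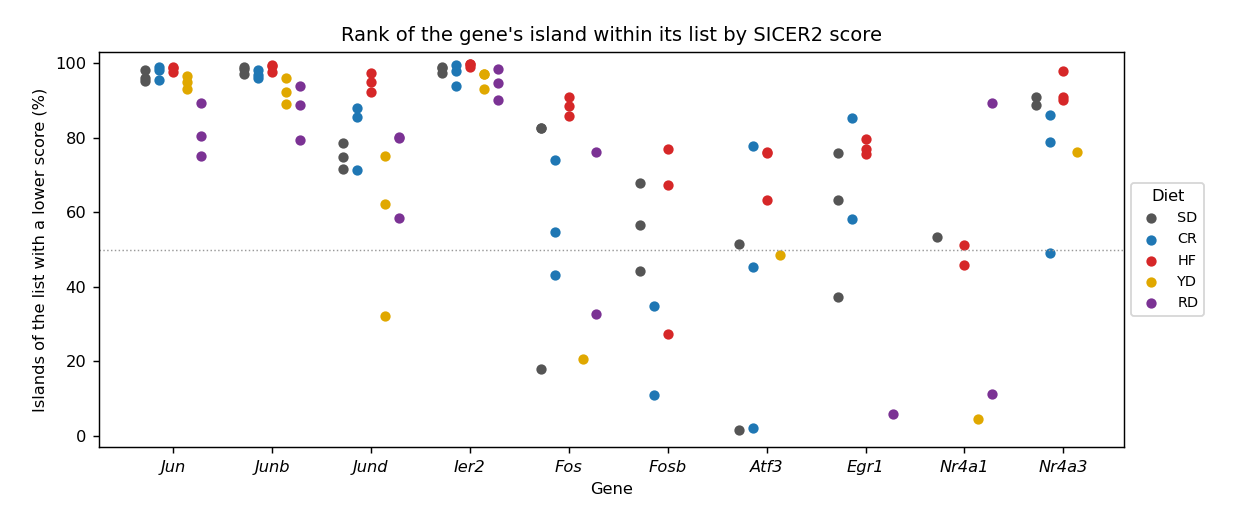
Rank of the island of each immediate early gene within its own list, as the percentage of islands with a lower SICER2 score (vertical axis), by gene and coloured by diet. Each point is 1 library with an island, and the dotted line is at 50%. Ier2 and Junb stay near the top, the 3 RD points of Jun are the lowest of that gene, and Atf3, Fosb and Nr4a1 spread below the line.

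In CR against SD, no member with an island in all 6 mice was wider or narrower in all CR mice, against 6.31% of 5389 protein-coding genes that were wider and 1.48% that were narrower. Of 34 other early genes with such data, Dusp1 was wider and Btg2 narrower. In HF against SD, no member had an island in all HF mice and no SD mouse, as 3.17% of 12525 protein-coding genes did. Fos, Junb and Egr1 were wider in every HF mouse than in any SD mouse, 3 of 7 members with data, and 14.6% of 6271 protein-coding genes were. HF replicate 1 had islands at 5 of 6 leukocyte and 5 of 5 endothelial markers, HF replicate 2 at 0 of 6 and 2 of 5, and HF replicate 3 at 1 of 6 and 3 of 5. Stellate cell markers had islands at 2 of 5 in HF replicates 1 and 3 and at 0 in HF replicate 2. The part of those cells in the HF widths was not tested.

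In YD against SD, Fosb and Egr1 had an island in all SD mice and no YD mouse, 2 of 10 members, as did 7.08% of 10753 protein-coding genes. Junb was narrower in every YD mouse, 1 of 4 members with data, as were 13.0% of 2474 protein-coding genes. In RD against SD, Fosb had an island in 3 SD mice and no RD mouse, as did 2.07% of 11069 genes, and Jun and Junb were narrower in every RD mouse, 2 of 4, as were 10.2% of 3962 genes. In RD against YD, the comparison that differs by the anthocyanins of purple corn, Jun was narrower in every RD mouse, 1 of 4 members, as were 0.59% of 2203 genes. With islands at the same TSS joined, an alternative chosen after seeing the data, Jun was narrower in neither of these comparisons. That left 1 of 4 members (Junb) in RD against SD, beside 10.8% of 3962 protein-coding genes with islands joined likewise. In RD against YD it left 0 of 4, beside 0.635% of 2203. The 4 comparisons with SD share the same 3 SD mice, and the last shares its YD and RD mice with 2 of them. These counts used the values by which the members were chosen, so they are a description only.

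For the 4 members with an island in every library, the fitted log2 differences in the width of the highest-scoring island were 0.26 ± 0.30 (standard error) for Jun, 0.72 ± 0.34 for Junb, 0.78 ± 0.45 for Jund and 0.29 ± 0.60 for Ier2 in HF against SD. In RD against SD they were −0.98 ± 0.30 for Jun, −1.11 ± 0.34 for Junb, −0.62 ± 0.45 for Jund and −1.04 ± 0.60 for Ier2. In YD against SD they were −0.15 ± 0.30 for Jun, −0.95 ± 0.34 for Junb, −0.86 ± 0.45 for Jund and −0.76 ± 0.60 for Ier2, and in CR against SD −0.01 ± 0.30, −0.33 ± 0.34, −0.53 ± 0.45 and −0.52 ± 0.60 in the same order. In RD against YD, Jun had −0.83 ± 0.30, Junb −0.15 ± 0.34, Jund 0.25 ± 0.45 and Ier2 −0.29 ± 0.60. The same fit in limma covered 2059 protein-coding genes with an island in every library. Their median log2 difference was 0.34 in HF, 0.14 in CR, −0.29 in RD and −0.49 in YD against SD, and 0.20 in RD against YD. Junb and Jund in HF, Junb, Jund and Ier2 in YD, and all 4 members in RD lay farther from 0 than that median. As many of the 2059 genes lie above a median as below it, so this gives a position and does not set the members apart. Their standard errors of 0.30 to 0.60 are also large beside the distances from the median. In CR the 4 members were below 0, with Jun at −0.01 ± 0.30, and the median was above it. The fit took 1 island per gene. Joined islands would span 5000 in place of 2000 bp for Junb in CR replicate 1. They would span 5800 in place of 3000 bp for Ier2 in SD replicate 2 and 3600 in place of 1600 bp for Jun in RD replicate 3. No gene passed an adjusted p of 0.05 in limma in any of the 5 comparisons (0.0% called in each). An unadjusted p under 0.05 was found for 50 genes in CR, 123 in HF, 142 in RD and 342 in YD against SD, and 122 in RD against YD. With no difference at any gene, a share of about 0.05 of the 2059 genes would have such a p. Without YD replicate 1, whose islands were the widest of the YD lists, 314 genes passed in YD against SD, all narrower in YD, and 56 in RD against YD.

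Other genes of the same response were taken from a list of 58, made up of further bZIP factors, early transcription factors, feedback regulators and further early-induced genes. On average 51.0 ± 3.61 of them had an island in HF, 44.7 ± 3.06 in CR, 43.3 ± 3.79 in SD, 35.3 ± 2.31 in RD and 31.0 ± 6.08 in YD. Fosl1, Egr4, Npas4 and Ptgs2, genes known mainly from other tissues or from inflammation, had an island in no library. The 14 feedback regulators, such as the phosphatase Dusp1 and the mRNA decay factor Zfp36, were marked most often, with all 14 in each HF mouse, 12 in each SD mouse, 8 to 12 in YD and 11 to 12 in RD. The 18 further early-induced genes had islands at 14.7 ± 1.53 in SD, 8.67 ± 2.31 in YD and 10.7 ± 1.53 in RD. The 10 further bZIP factors had islands at 5.67 ± 1.15 in SD, 4 in each YD mouse and 4.33 ± 0.577 in RD.

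Of the other early genes, Egr2, a relative of Egr1, Ier5l and Homer1 had an island in all SD mice and no YD mouse, 3 of 49 with data, beside 7.08% of all protein-coding genes. Ier5l and Ccn1, a secreted matrix protein, had one in all SD mice and no RD mouse, 2 of 49 beside 2.07%. Dusp2, a nuclear phosphatase, had one in all HF mice and no SD mouse, 1 of 54 beside 3.17%. Islands were wider in every HF mouse than in any SD mouse at 10 of 36, beside 14.6%: Mafg, Irf1, Bhlhe40, Csrnp1, Dusp1, Zfp36, Zfp36l1, Ier3, Ppp1r15a and Rhob. They were narrower in every YD mouse at 4 of 20, beside 13.0% (Myc, Id1, Zfp36l1 and Gadd45g), and in every RD mouse at 7 of 27, beside 10.2% (Fosl2, Cebpd, Hes1, Dusp6, Btg2, Gadd45g and Trib1). In limma none of the 19 other early genes fitted passed in any comparison. Their median log2 differences were 0.49 in HF, 0.22 in CR, −0.44 in RD and −0.65 in YD against SD, and 0.19 in RD against YD, each of the same sign as the median over all genes.

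The kinases and factors that switch these genes on, 19 in all, had islands at 18.3 ± 1.15 in HF, 16.3 ± 0.577 in CR, 15.3 ± 2.08 in SD, 12.3 ± 2.08 in RD and 11 ± 3 in YD. Genes marked in all 15 libraries included Mapk14 (p38), Map2k1, Elk4, Mrtfb and Mef2d. Srf, which binds the CArG box, had an island in 12, including 1 of 3 YD and 2 of 3 RD mice. Mapk8, which encodes the c-Jun kinase JNK1, had an island in 7 of the 9 SD, CR and HF libraries and in 0 of the 6 corn libraries. Dusp5 and Ier5l among the other early genes had the same counts. The share of all protein-coding genes with at least 7 of 9 against 0 of 6 was not counted, so how common these counts are is not known. It cannot be below the 1.84% of 13044 genes at the stricter cut of at least 8 of 9, which Mapk8, Dusp5 and Ier5l did not meet. None of the 6 upstream genes fitted in limma passed in any comparison, and their median log2 difference was 0.27 in HF, 0.20 in CR, −0.29 in RD and −0.52 in YD against SD.

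**Figure D5:**
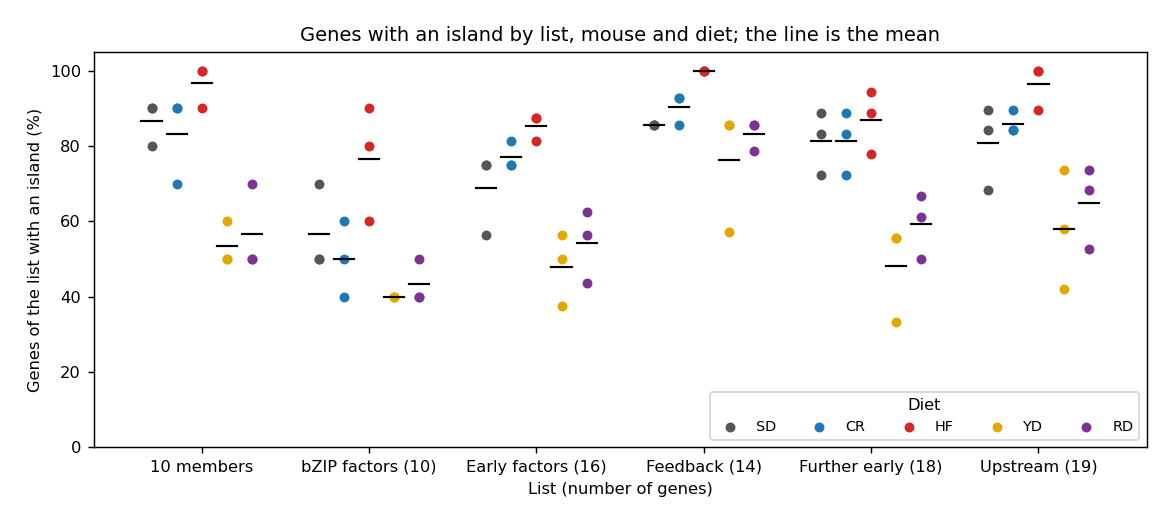
Percentage of genes with an island in each list (horizontal axis, with the number of genes) by mouse and diet. Points are single mice, and the line is the mean of 3 mice. The YD and RD means are the lowest and the HF mean is the highest in each list, and the diet means lie closest together among feedback regulators.

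The mean log2 width of Jun, Junb, Jund and Ier2 over the 15 libraries was compared with that of 2055 other protein-coding genes with an island in every library that share none with a member. Those most like it included Rpl29 (Pearson r = 0.938), which encodes a ribosomal protein, Prmt6 (0.911), an arginine methyltransferase of histone H3, Txn1 (0.904), the redox protein thioredoxin, and Rhog (0.892), a small GTPase. The median r over all 2055 was 0.556. The points are 15 libraries of differing depth and island number, which all genes of a library share, so these values describe likeness only.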

How the data were processed

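The authors mapped 50 bp single-end reads to mm10 (bwa), removed unmapped, duplicate and MAPQ < 1 reads and those outside chromosomes 1 to 19 and X, and called islands in each library with SICER2 (fragment 200 bp, window 200 bp, gap 400 bp, FDR < 0.05). The deposited score of an island is a sum of −ln Poisson probabilities with no scaling across libraries, and it served only as a rank within a list. Whether an input control was used is not given in the sources used here.

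Islands were assigned to GENCODE M21 TSSs within 1 kb. Diets and replicate numbers came from the sample labels. Same-numbered mice are different animals, and the same-number correlation of deviations averaged 0.00348, so no pairing was used. Widths were tested on the log2 scale with limma 3.58.1 in R 4.3.3 over all 15 libraries and Benjamini-Hochberg adjustment. The procedure was run on simulated data with independent noise for each gene and library. Such data lack shifts that the genes of a library share, so that run does not give the power of the fit here. Other calculations used Python 3.11.15, pandas 2.3.3 and scipy 1.17.1. Read counts per island were not used here, so errors are those between mice.

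The members and gene lists were chosen with earlier results of these data known. Named genes were all members, listed genes past the threshold or marked in 3 mice of a diet and 0 of the other, and the 5 genes most like the members, of which 1 is not reported here. Genes named for non-overlapping widths and upstream genes named by their number of libraries were added after their values were seen. For 4 list symbols the older name was matched through RefSeq. Alternatives were the TSS window, the choice of island, score cuts, scaling, the replicate block, the form of the library name, joined islands and leaving out each mouse.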

Additional observations from a re-analysis of the deposited data

How the results depend on the processing

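The YD and RD means stayed below those of SD, CR and HF in members with an island under every setting given here. With the TSS required inside the island the mean number of members was 7.33 in SD, 7.0 in CR, 3.33 in YD and 2.33 in RD, the median width was 2867 bp in SD and 3133 bp in YD, and other early genes numbered 36.0 in SD, 36.0 in CR, 21.33 in YD and 27.0 in RD. With islands at or above the median score the members numbered 7.33 in SD, 6.33 in CR, 9.0 in HF and 4.0 in YD, and the YD width was 2500 bp. With the 7825 highest-scoring islands of each list the members numbered 7.0 in SD, 6.33 in CR, 8.67 in HF and 4.33 in RD, the widths were 3100 bp in SD and 2900 bp in CR, and other early genes numbered 39.0 in SD, 39.0 in CR, 42.67 in HF and 30.67 in RD. So the median width of YD, below that of SD as reported, was above it with the TSS inside the island. That setting dropped Jund in all YD mice, Junb in YD replicate 1, Ier2 in YD replicate 2 and Nr4a1 in YD replicate 3. The YD medians under the 2 settings thus cover different genes, and the higher one does not mean that YD islands were wider. With islands at the same TSS joined, also chosen after seeing the data, 1 member in place of 2 was narrower in RD than SD. In RD against YD it was 0 in place of 1. Both changes came from Jun, which in RD replicate 3 then spanned 3600 bp. The shares of all protein-coding genes were then 10.8% in place of 10.2% and 0.635% in place of 0.59%. In an alternative chosen after seeing the data, the single CR library named ChIP had 7.0 members and the single RD library named PATChIP a median width of 1000 bp.

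For genes past the threshold in limma, ranks in place of widths gave 74 in YD against SD and 24 in RD against YD, and centring each library on its median gave 1 in RD against SD. Leaving out 1 mouse at a time gave 0 to 314 genes in YD against SD, 0 to 56 in RD against YD, 0 to 1 in RD and in HF against SD, and 0 in CR against SD, with the highest values without YD replicate 1, except for RD against SD, where the 1 gene came without RD replicate 2. With the replicate block 0 genes passed in each comparison, and same-numbered mice did not deviate together (r of −0.14 to 0.141 over 30 pairs). Without 1 mouse the mean number of members was 8.5 to 9.0 in SD, 8.0 to 9.0 in CR, 9.5 to 10 in HF, 5.0 to 5.5 in YD and 5.0 to 6.0 in RD.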

Other observations

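Islands that lay within 50 kb of a member but more than 1 kb from any annotated TSS were counted after the data had been seen. The SD mice had 3, 2 and 1 of them, the CR mice 1, 4 and 3, and the HF mice 7, 3 and 8, while the 6 YD and RD libraries had 0. Around Fos there were 11 in 8 libraries, around Junb 6 in 6 libraries, around Atf3 4 in 3 libraries, and around Jun 0. The same count around all protein-coding genes was scaled to 10 genes. It was 1.17 to 2.71 in SD, 1.61 to 4.14 in CR, 1.48 to 3.12 in HF, 0.898 to 1.66 in YD and 1.69 to 3.12 in RD. Protein-coding genes with any such island made up 5.66% to 8.66% in YD and 9.15% to 15.7% in RD. The share was 7.19% to 14.3% in SD, 9.83% to 20.2% in CR and 11.2% to 19.5% in HF. Most genes thus had none in any diet, and a count of 0 around 10 genes in a single corn library does not set the members apart. Lists of HF also held the highest share of protein-coding genes with an island, and the part of the total called in each list in these counts was not tested.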
